A study of Bos taurus with 14 samples.

Results

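The genes described here are 3 beta-defensin genes of cattle, DEFB4A, LAP and TAP, in mammary tissue of Holstein cows in the weeks before calving. The members were all probe sets whose only annotated gene symbol is one of these names: 4 probe sets, of 24016 that were tested. They cover 3 of the 9155 genes with a symbol. DEFB4A has 2 of them, called S1_s_at and S1_at here by the ending of their identifiers, and LAP and TAP have 1 each. The genes were chosen by their signal in these arrays, in which DEFB4A was already known to be lower in short days than in long days close to calving, so that comparison is given below as a description, with no test.

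Beta-defensins are small cationic peptides, held together by disulfide bridges, that damage the membranes of bacteria and fungi and attract immune cells. Epithelia make them at a low level or on demand, when bacterial products or interleukin-1 act through Toll-like receptors and the transcription factor NF-kappaB. TAP, the tracheal antimicrobial peptide, and LAP, the lingual antimicrobial peptide, were found in the epithelium of the bovine airway and tongue, and LAP is also made by udder epithelium during mastitis. DEFB4A encodes bovine beta-defensin 4, a peptide first purified from neutrophil granules and also made by epithelial cells. In bulk tissue, more RNA per cell and more cells that hold it cannot be told apart. In the RefSeq annotation of the assembly ARS-UCD2.0 all 3 genes lie on chromosome 27, in a cluster with other beta-defensin genes.

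From the end of milking until calving, cows had short days (SD), with 8 h of light, or long days (LD), with 16 h of light, in each 24 h. Milking ended at the same time before calving in all groups, so time under the photoperiod was longer at day -9 than at day -24. The 4 groups were SD at day -9 relative to calving (4 arrays), LD at day -9 (4 arrays), SD at day -24 (3 arrays) and LD at day -24 (3 arrays), each array from 1 biopsy. All groups were dry, pregnant cows. Whether a cow was sampled at both days is not given in the sources used here, so that p-values measure only the spread between these samples, which may in part be technical. Values are log2 signals after robust multi-array averaging (RMA), and a difference of 1 is a change of 2-fold in signal. Means are given ± the standard deviation between arrays (s.d.), and SD always stands for short days. Members of this family resemble each other in sequence, and a probe set with the suffix s_at can take up several transcripts, so the signal of each probe set is open to its relatives.

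The array medians lay between 6.43 and 6.61, and pairs of arrays correlated between 0.950 and 0.992 across probe sets. In a principal component analysis, SD day -9 replicate 1 stood apart on the third component, at 53.9, and LD day -24 replicate 1 on the first, at -62.6. SD day -24 replicate 3 and LD day -9 replicate 4 were both lower than the other arrays by at least 0.7 in 280 probe sets, of which 0 were members. The epithelial part of the tissue was present in each group: the luminal keratin gene KRT8 averaged 8.74 ± 0.73 in SD and 8.49 ± 0.20 in LD at day -9 (s.d., n = 4 each), and 8.47 ± 0.44 in SD and 8.39 ± 0.63 in LD at day -24 (s.d., n = 3 each). By limma with Benjamini-Hochberg adjustment over all probe sets, 0% of the 24016 probe sets passed 0.05 in each of the 4 comparisons below, members included. At an unadjusted limma p under 0.05 there were 666 for SD minus LD at day -9, 580 at day -24, 1096 for day -9 minus day -24 in SD and 1795 in LD. With no difference at all, a share of about 0.05 of the 24016 probe sets would pass, and only the 1795 lies above that share.

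DEFB4A had the widest range. Its S1_s_at probe set was at 8.31, 4.99, 6.98 and 7.12 in SD at day -9, and at 10.55, 10.02, 8.07 and 8.90 in LD at day -9. At day -24 it was at 6.93, 5.82 and 7.05 in SD, and at 7.65, 7.18 and 8.05 in LD. The SD and LD arrays of day -9 overlapped only through the highest SD array, SD replicate 1, and the lowest LD array, LD replicate 3, while at day -24 every SD array was below every LD array. From lowest to highest array the signal spanned 5.56, a 47-fold range, wider than in 99.9% of the probe sets tested. Both ends of that range are arrays of the comparison that chose the genes, so nothing is read from its rank.

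The DEFB4A S1_at probe set was at 7.42, 3.07, 4.78 and 6.20 in SD at day -9, and at 8.05, 7.36, 5.69 and 6.84 in LD at day -9. Its day -24 signals were 6.49, 3.98 and 5.93 in SD, against 5.23, 4.97 and 5.77 in LD. Here SD and LD overlapped at both days, and SD day -24 replicates 1 and 3 were above all LD arrays of that day. Both DEFB4A probe sets had their lowest value in SD day -9 replicate 2 and their highest in LD day -9 replicate 1.

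LAP was at 8.59, 5.11, 5.51 and 5.19 in SD at day -9, and at 9.48, 7.64, 5.70 and 8.14 in LD at day -9. At day -24 it was at 4.81, 5.18 and 6.32 in SD, and at 4.53, 4.63 and 6.75 in LD. In SD at day -9, replicate 1 stood far above the other 3 arrays, and in LD at day -9, replicate 3 was the low one. The signal spanned 4.95 over the 14 arrays, a 30.9-fold range.

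TAP had a faint signal, under the array's lower quartile (between 4.47 and 4.73) in 11 of 14 arrays. It was at 3.91, 3.75, 3.93 and 3.65 in SD at day -9, and at 6.55, 4.33, 4.02 and 4.58 in LD at day -9. At day -24 it was at 3.85, 4.98 and 4.01 in SD, and at 3.99, 3.81 and 3.79 in LD. Only SD day -24 replicate 2 and LD day -9 replicates 1 and 4 lay above the lower quartile of their arrays. Near background, array signals compress differences, which limits what the TAP probe set can show in the other arrays.

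**Figure D1:**
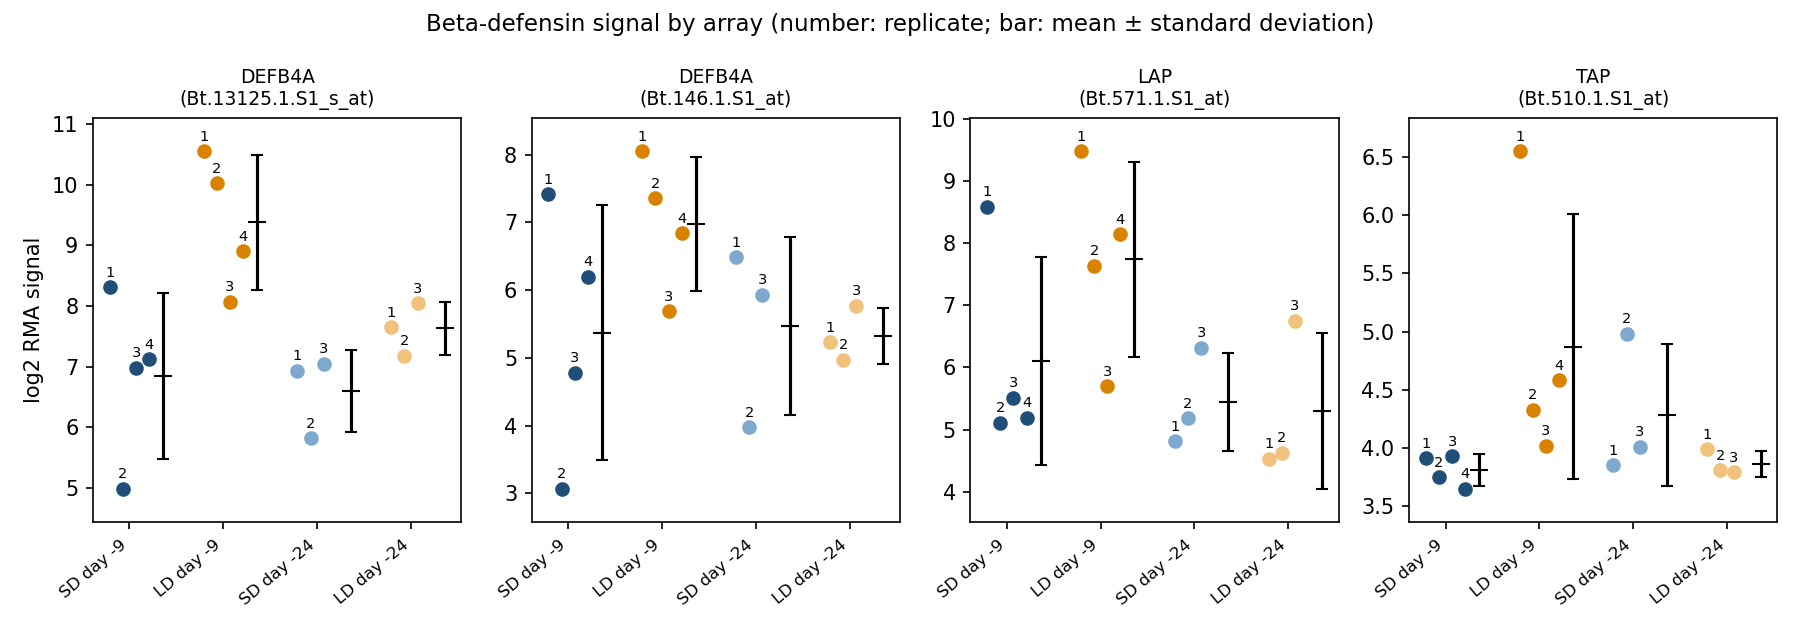
Log2 RMA signal (vertical axis, a separate scale for each panel) of the 4 member probe sets in the 14 arrays, by group. Points are arrays with their replicate number, and bars are the mean ± standard deviation of 4 arrays (day -9) or 3 arrays (day -24). LD day -9 replicate 1 is the highest array in each panel, and the TAP panel runs near background in 11 of 14 arrays.

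The spread between animals of 1 group was large for these genes. The pooled within-group standard deviation was 1.42 for LAP, 1.32 for the DEFB4A S1_at probe set, 1.03 for DEFB4A S1_s_at and 0.69 for TAP. These were larger than in 99.8%, 99.7%, 99.3% and 96.5% of all probe sets tested, in the same order. LAP in LD at day -9 alone spanned 3.78 over 4 arrays, and DEFB4A S1_at in SD at day -9 spanned 4.35. In LD at day -24 both DEFB4A probe sets were close together over the 3 arrays, with ranges of 0.87 and 0.79.

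At day -9, photoperiod is compared close to calving. DEFB4A S1_s_at averaged 6.85 ± 1.37 in SD and 9.38 ± 1.11 in LD (s.d., n = 4 each), a difference of -2.53 or a 5.79-fold lower signal in SD. The DEFB4A S1_at probe set averaged 5.37 ± 1.88 in SD and 6.98 ± 0.99 in LD (s.d., n = 4 each), a difference of -1.62. LAP averaged 6.10 ± 1.67 in SD and 7.74 ± 1.57 in LD (s.d., n = 4 each), a difference of -1.64. TAP averaged 3.81 ± 0.14 in SD and 4.87 ± 1.14 in LD (s.d., n = 4 each), a difference of -1.06.

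All 4 probe sets were thus lower in SD by at least 1 at day -9, as were 0.2% of the 24016 probe sets. Only TAP had SD arrays that were all below the LD arrays, as did 1.12% of the probe sets. Nothing is read from these counts, since this comparison chose the members. For 3 of the probe sets the difference is similar to or smaller than the spread within a group, and single arrays move it. Without LD day -9 replicate 1 it was -0.50 for TAP and -1.06 for LAP. Without SD day -9 replicate 1 it was -2.47 for LAP and -2.30 for DEFB4A S1_at, and without SD day -9 replicate 2 it was -0.85 for DEFB4A S1_at. For DEFB4A S1_s_at it stayed between -3.02 and -1.91 when each array was left out in turn.

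At day -24 photoperiod is compared on arrays outside the comparison in which DEFB4A was known to be lower. The genes were still chosen with earlier results of these data known, and the test takes its spread from all 14 arrays. No difference between SD and LD that passes the test was found at day -24. DEFB4A S1_s_at averaged 6.60 ± 0.68 in SD and 7.63 ± 0.43 in LD (s.d., n = 3 each), a difference of -1.03 (95% interval -2.63 to 0.57, limma adjusted p = 1). It was the 1 member probe set lower by at least 1, as were 0.246% of all probe sets, and its groups did not overlap, as was so with SD below LD in 3.02% of all probe sets. Without SD day -24 replicate 2 the difference was -0.64. The DEFB4A S1_at probe set had the opposite sign, at 5.47 ± 1.32 in SD and 5.32 ± 0.41 in LD (s.d., n = 3 each), a difference of 0.14 (-1.89 to 2.18, limma adjusted p = 1). That sign was not stable, since leaving out each array in turn gave -0.37 to 0.89, with 3 of 14 fits below 0.

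LAP at day -24 averaged 5.44 ± 0.79 in SD and 5.30 ± 1.25 in LD (s.d., n = 3 each), a difference of 0.13 (95% interval -2.06 to 2.32, limma adjusted p = 1). Leaving out each array in turn gave -0.31 to 0.85, with 3 fits below 0, where again only the fits without a day -24 array can move it. TAP averaged 4.28 ± 0.61 in SD and 3.86 ± 0.11 in LD (s.d., n = 3 each), a difference of 0.42 (-0.66 to 1.49, limma adjusted p = 1). The TAP difference was 0.07 without SD day -24 replicate 2. The LAP interval reaches past a 4-fold change in both directions, so a difference of that size at day -24 was not detectable with 3 arrays a group.

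The approach to calving under long days set day -9 against day -24. None of the 4 probe sets passed the test. The LD arrays of day -9 are those whose high signal had a part in the choice of the genes, so the sizes, intervals and p-values here are biased by that choice towards higher values at day -9 and are given as a description. All 4 probe sets were higher at day -9 by at least 1, as were 0.262% of all probe sets, and nothing is read from that count. LAP averaged 7.74 ± 1.57 at day -9 (s.d., n = 4) and 5.30 ± 1.25 at day -24 (s.d., n = 3), a difference of 2.44 or 5.41-fold (95% interval 0.39 to 4.48, limma adjusted p = 0.651). DEFB4A differed by 1.76 for S1_s_at (0.26 to 3.25) and by 1.66 for S1_at (-0.24 to 3.56), and TAP by 1.01, each with a limma adjusted p = 0.651. Over the alternative settings these adjusted p-values lay between 0.398 and 0.986. For DEFB4A S1_s_at and TAP every day -9 array was above every day -24 array, which held for 4.32% of all probe sets. The TAP difference was 0.45 without LD day -9 replicate 1.

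Under short days the same 2 time points gave small differences with wide intervals. The SD arrays of day -9 also had a part in the choice, which biases these differences towards lower values at day -9. LAP averaged 6.10 ± 1.67 at day -9 (s.d., n = 4) and 5.44 ± 0.79 at day -24 (s.d., n = 3), a difference of 0.67 (95% interval -1.38 to 2.72, limma adjusted p = 0.982). DEFB4A differed by 0.25 (-1.25 to 1.75, limma adjusted p = 0.991) and -0.10 (-2.0 to 1.80, limma adjusted p = 0.997) for its 2 probe sets. TAP differed by -0.47 (-1.48 to 0.54, limma adjusted p = 0.978). No member was higher by at least 1, against 0.329% of all probe sets, or lower by at least 1, against 0.242%. Without SD day -9 replicate 1 the difference was -0.24 for DEFB4A S1_s_at and -0.16 for LAP. Whether the change over days differed between LD and SD was not tested, because the difference contains the comparison that chose the members.

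**Figure D2:**
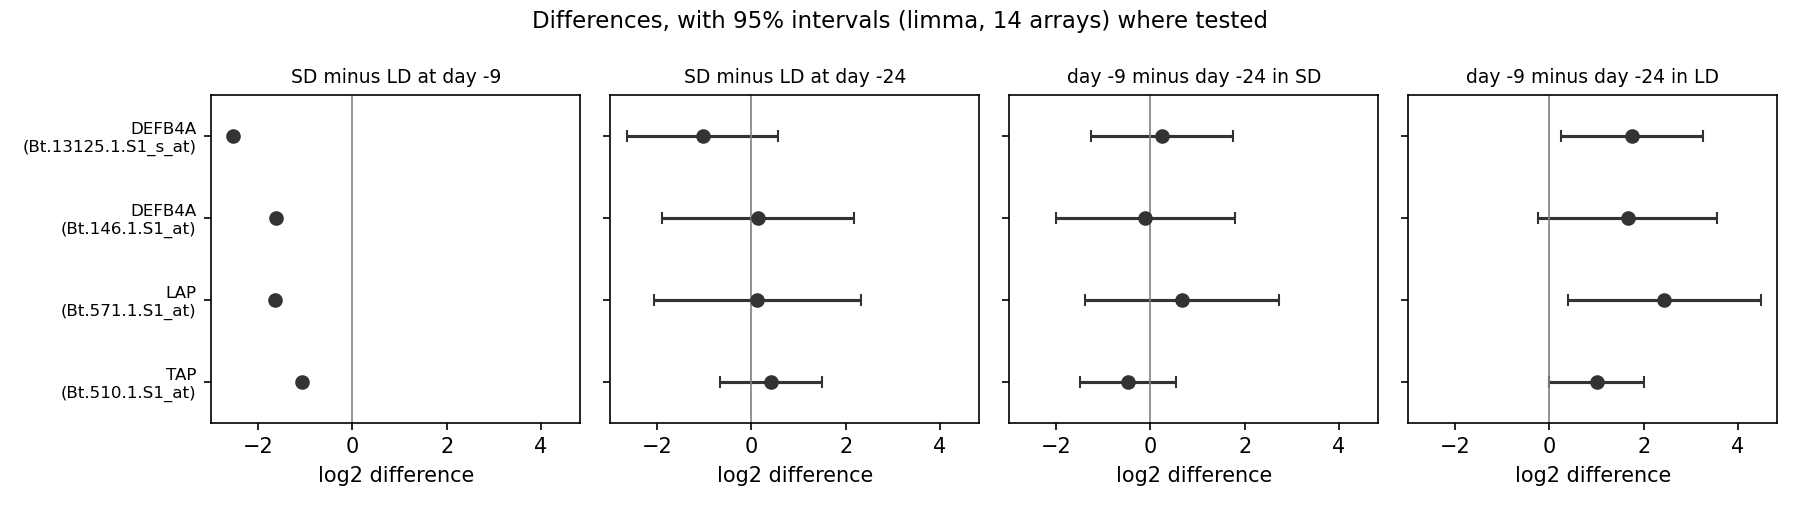
Log2 differences (horizontal axis) of the 4 member probe sets in the 4 comparisons, with 95% intervals from limma over 14 arrays where the difference was tested. The SD minus LD panel at day -9 shows the differences alone, between -2.53 and -1.06, since it chose the members. In LD, day -9 lay above day -24 by 1.01 to 2.44.

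DEFB4A and LAP varied together over the arrays, which the test below carries only by the rho of DEFB4A S1_s_at and LAP. TAP was not shown to vary with DEFB4A or LAP. Over the 14 arrays the DEFB4A probe sets had a Pearson r of 0.88 (Spearman rho 0.75), DEFB4A S1_s_at and LAP 0.78 (rho 0.71), and DEFB4A S1_at and LAP 0.76 (rho 0.72). These values hold the difference at day -9 that chose the genes and are given without a test. Without the 2 arrays farthest from the median of the first probe set, r was 0.83, 0.62 and 0.73.

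The test was made on each array's deviation from its group mean, into which no difference between groups enters, by exact permutation within groups. The DEFB4A probe sets then had r = 0.93 (rho 0.89, exact permutation p = 9.6e-05 and 0.00014, adjusted over 6 pairs 0.00058 and 0.00087). DEFB4A S1_s_at and LAP had r = 0.74 (rho 0.75, exact permutation p = 0.022 and 0.0066, adjusted 0.048 and 0.02). DEFB4A S1_at and LAP had r = 0.67 (rho 0.59, exact permutation p = 0.024 and 0.051, adjusted 0.048 and 0.1), so that this pair passed 0.05 by r and not by rho. The 6 pairs include that of the DEFB4A probe sets, which are of the same gene, so that their correlation was foreseeable. The adjusted values of 0.048 stay under 0.05 only with that pair counted. By r, therefore, no link between DEFB4A and LAP is read from the test, and the rho of DEFB4A S1_s_at and LAP remains.

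TAP and LAP had r = 0.61 over the 14 arrays (rho 0.45), and 0.39 with both day -9 replicates numbered 1 left out. Within groups the value was 0.48 (rho 0.26, exact permutation p = 0.17 and 0.35, adjusted 0.26 and 0.53). TAP had r = 0.54 with DEFB4A S1_s_at and 0.40 with DEFB4A S1_at over the 14 arrays (rho 0.45 and 0.30), and 0.00 and -0.20 without the 2 farthest arrays. Within groups these were 0.33 (rho 0.08, exact permutation p = 0.42 and 0.85, adjusted 0.51 and 1) and 0.14 (rho -0.00, exact permutation p = 0.64 and 1, adjusted 0.64 and 1). Probe sets of related genes can share transcripts, and the part of that in these correlations was not tested.

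**Figure D3:**
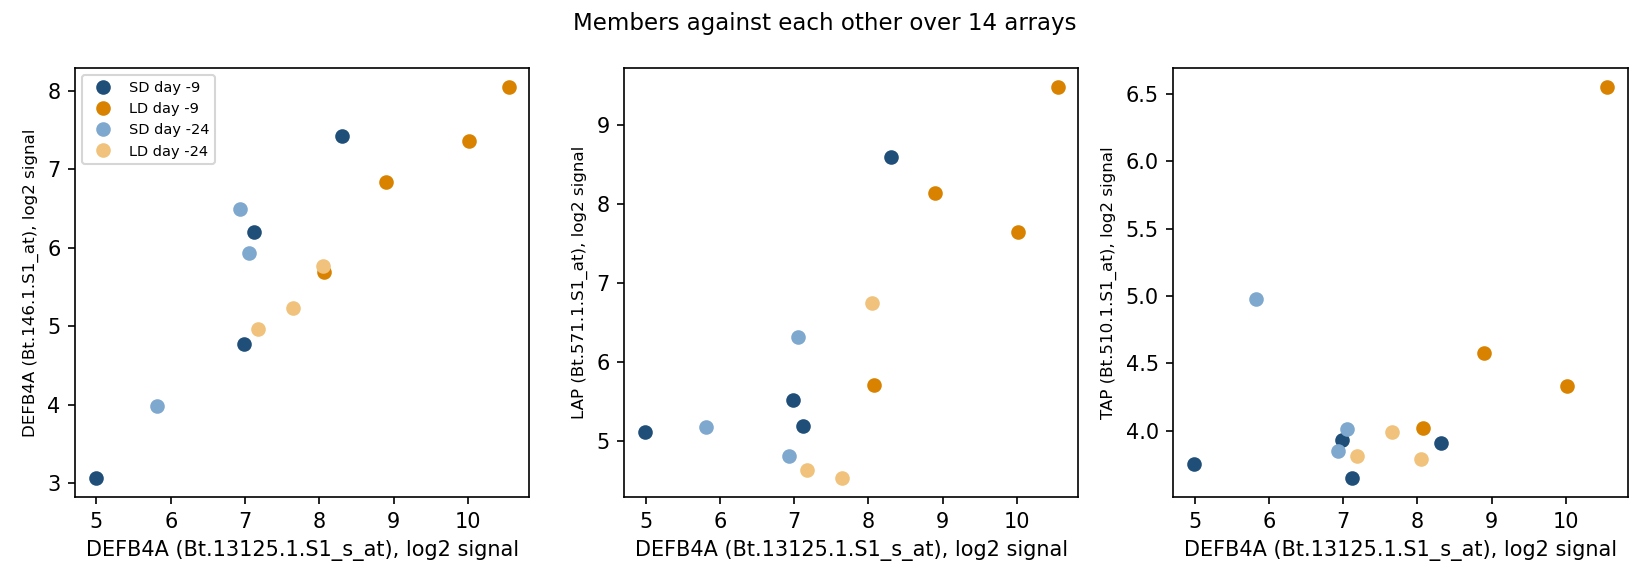
Log2 signal of DEFB4A S1_at, LAP and TAP (vertical axes) against DEFB4A S1_s_at (horizontal axis), 1 point per array, coloured by group. The first and second panels rise from left to right (r = 0.88 and 0.78), and in the TAP panel 1 LD day -9 array at 6.55 stands above the rest.

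The arrays high in the members were not all of 1 group. Averaged over the 4 probe sets, each centred on its mean, LD day -9 replicate 1 was at 2.65, LD day -9 replicate 2 at 1.33, LD day -9 replicate 4 at 1.11 and SD day -9 replicate 1 at 1.06. The lowest array was SD day -9 replicate 2, at -1.77. LD day -9 replicate 3, at -0.13, was in the middle of the order, below LD day -24 replicate 3, at 0.09.

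The DEFB4A probe sets did not differ by a constant amount between photoperiods. This was noticed after the values were seen and is a description. Within an array, S1_s_at minus S1_at was 0.89, 1.92, 2.20 and 0.91 in SD at day -9, and 2.50, 2.66, 2.38 and 2.06 in LD at day -9. At day -24 it was 0.45, 1.84 and 1.11 in SD, and 2.43, 2.21 and 2.28 in LD. The 7 SD arrays thus spanned 1.76, with 6 of them below every LD array, while the 7 LD arrays lay within a range of 0.60. The photoperiod difference of DEFB4A was thus of unequal size in its 2 probe sets, and whether they take up the same transcripts was not tested.

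The array held 3 other beta-defensin genes under a single symbol, EBD, DEFB10 and DEFB13, each with 1 probe set. EBD, the enteric beta-defensin gene, neighbours DEFB4A among the named genes of the cluster. It was at 8.18, 7.30, 8.14 and 7.38 in SD at day -9, and at 10.38, 9.06, 9.37 and 8.57 in LD at day -9. All 4 SD arrays were below all 4 LD arrays, and the difference was -1.60, or 3.02-fold lower in SD. At day -24 EBD averaged 7.66 ± 0.26 in SD and 8.24 ± 1.04 in LD (s.d., n = 3 each), a difference of -0.57 (95% interval -1.65 to 0.50, limma adjusted p = 1). In LD it differed by 1.11 between day -9 and day -24 (0.10 to 2.11, limma adjusted p = 0.651), and in SD by 0.08 (-0.92 to 1.09, limma adjusted p = 0.996).

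DEFB10 and DEFB13 did not have this pattern. DEFB10 averaged 3.76 ± 0.71 in SD and 4.22 ± 0.40 in LD at day -9 (s.d., n = 4 each), and its highest array was SD day -24 replicate 1, at 5.96. In SD it differed by -1.10 between day -9 and day -24 (95% interval -2.14 to -0.06, limma adjusted p = 0.97). DEFB13 was below the lower quartile in all 14 arrays, at 3.71 ± 0.16 in SD and 3.81 ± 0.34 in LD at day -9 (s.d., n = 4 each), so it was near background throughout.

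**Figure D4:**
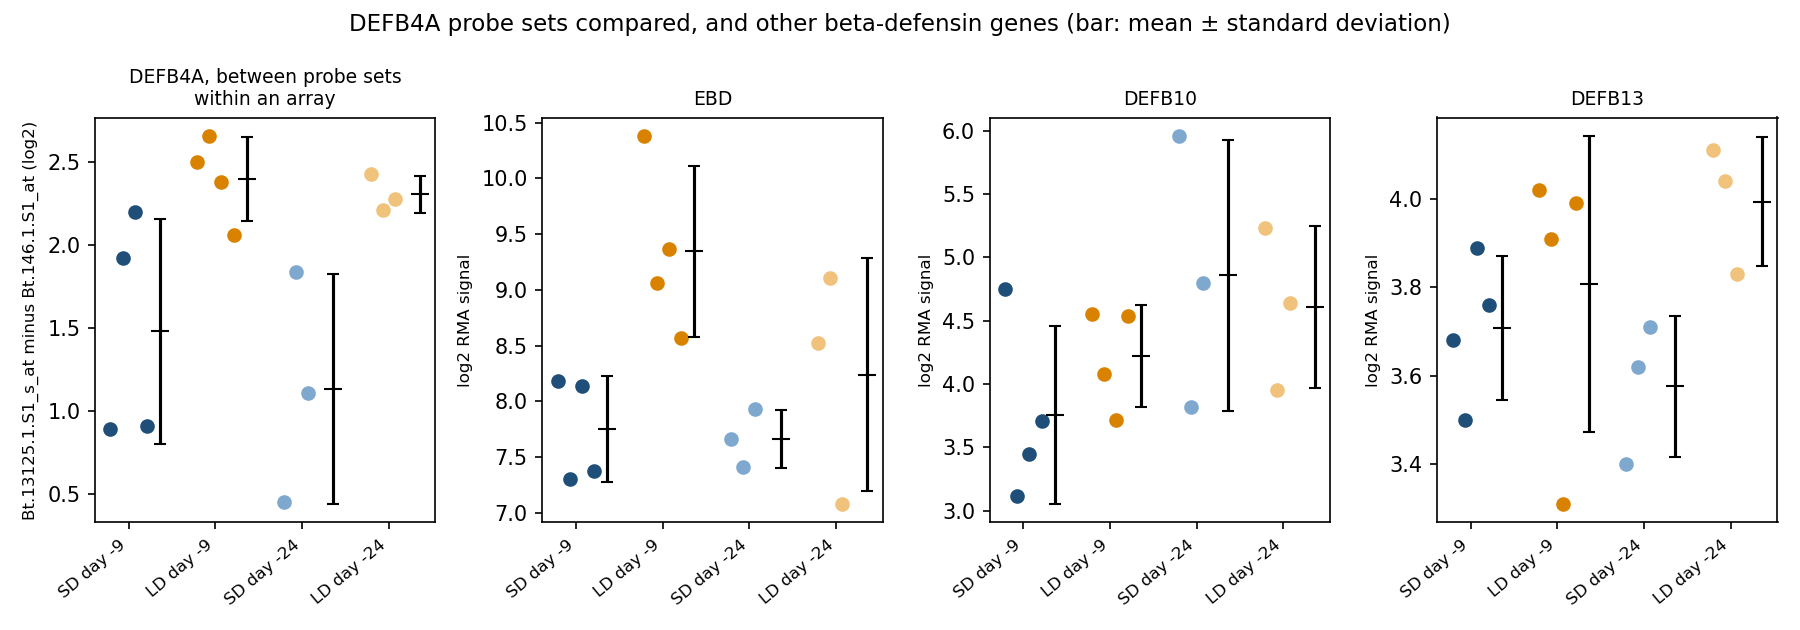
Left panel: the log2 signal of DEFB4A S1_s_at minus that of DEFB4A S1_at within each array; the SD arrays lie between 0.45 and 2.20 and the LD arrays between 2.06 and 2.66. Other panels: log2 RMA signal of EBD, DEFB10 and DEFB13 by array and group. Bars are the mean ± standard deviation of 4 arrays (day -9) or 3 arrays (day -24).

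Of the single-symbol genes outside the members, 8 followed the member average most closely over the 14 arrays, ranked by Pearson r and given without a test. SLC11A1, a metal transporter in the phagosomes of macrophages and neutrophils, had r = 0.96 (0.95 with group means removed). S100A9 and S100A8, the subunits of calprotectin that neutrophils carry in bulk, had 0.91 and 0.89 (0.89 and 0.92). The pantetheinase gene VNN1 had 0.92, the matrix metalloproteinase gene MMP19 and the gene PERM1 0.91 each, and HID1 and the mitochondrial creatine kinase gene CKMT1A 0.88 each. In 7 of the 8, HID1 excepted, LD day -9 replicate 1 was the highest array. That follows largely from the ranking, since the member average was also highest in that array. The other probe set of MMP19 had r = 0.02.

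SLC11A1 was at 5.93 in SD day -9 replicate 1 and 4.54 in SD day -9 replicate 2, against 6.58 in LD day -9 replicate 1. S100A8 was at 6.75, 4.03 and 7.44 in the same arrays, and VNN1 at 7.65, 5.67 and 8.79. Both DEFB4A probe sets had their lowest value in the second of these arrays and their highest in the third. Likeness in these arrays was part of how the genes were picked, so nothing is read from it. These genes shared the arrays and so their RNA quality and cell makeup with the members.

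The lists of cell markers did not all share the direction of the members at day -9. Of 21 listed neutrophil markers 16 were measured, and 15 were below 0 in SD minus LD at day -9, with a median of -0.31, where 60.3% of all named genes were below 0 and their median was -0.04. Without SD day -9 replicate 1 the list's median was -0.70. Single genes of the list ran from -1.41 to 0.02, and the 2 with the largest differences were S100A8 and S100A12. S100A8 averaged 4.99 ± 1.21 in SD and 6.40 ± 1.16 in LD, and S100A12 7.77 ± 1.5 in SD and 9.04 ± 1.0 in LD (s.d., n = 4 each). For day -9 minus day -24 in LD, where all member probe sets were above 0, 11 of the 16 were above 0. The other 5 were below 0, down to -1.73, where 59.9% of all named genes were above 0. Averaged over the list and centred, the neutrophil markers lay from -0.77 to 0.43 in SD arrays, against -0.41 to 0.62 in LD arrays, at day -9. At day -24 they lay from -0.55 to 0.51 in SD arrays, against -0.16 to 0.29 in LD arrays. Their highest array was LD day -9 replicate 1 and their lowest SD day -9 replicate 2, as for both DEFB4A probe sets. Of the 16, 2 were under the lower quartile in every array. The part of neutrophils in the defensin signals was not tested, and S100A8 and S100A9 are also among the genes picked above for their likeness to the members.

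Macrophage markers had 10 of 11 measured genes below 0 in SD minus LD at day -9, with a median of -0.23, or -0.12 without SD day -9 replicate 1, among them GPNMB at 6.70 ± 0.59 in SD and 8.20 ± 0.23 in LD and CD68 at 7.06 ± 0.36 in SD and 8.17 ± 0.49 in LD (s.d., n = 4 each). Their highest array was LD day -9 replicate 2, at 0.71, and not the array highest in the defensins. T and NK markers had a median of -0.06 (8 of 12 below 0). Beside both lists, 60.3% of all named genes were below 0. The 2 T and NK genes named here were among the 4 above 0, against the sign of the list's median. The T cell receptor subunit CD3G was at 8.99 ± 0.43 in SD and 8.71 ± 0.35 in LD, and the NK receptor KLRK1 at 7.16 ± 0.64 in SD and 6.79 ± 0.52 in LD (s.d., n = 4 each).

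Luminal epithelial markers had a median of 0.06 in the same comparison (10 of 12 above 0), myoepithelial and basal markers 0.09 (6 of 9 above 0), adipocyte markers 0.02 (4 of 7 above 0) and skin keratinocyte markers 0.10 (3 of 3 above 0). Of all named genes, 39.7% were above 0. The medians of the T and NK, luminal, myoepithelial, adipocyte and vitamin D lists changed sign without SD day -9 replicate 1, and that of the keratinocyte list was 0.04. Of the myoepithelial list, the oxytocin receptor gene OXTR averaged 6.12 ± 0.80 in SD and 5.65 ± 0.45 in LD, and the basal keratin gene KRT17 9.32 ± 0.47 in SD and 9.11 ± 0.29 in LD (s.d., n = 4 each). Of the adipocyte list, the lipoprotein lipase gene LPL averaged 10.18 ± 0.78 in SD and 9.82 ± 0.52 in LD, and the leptin gene LEP, under the lower quartile in 13 of 14 arrays, 4.07 ± 1.13 in SD and 3.43 ± 0.40 in LD (s.d., n = 4 each). The mucin gene MUC1, 1 of the 2 genes of the luminal list below 0, averaged 9.61 ± 1.36 in SD and 10.30 ± 0.13 in LD (s.d., n = 4 each). The keratinocyte adhesion genes DSG1 and DSC1 were under the lower quartile in 12 and 14 of 14 arrays.

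The genes that act before and beside beta-defensins were described by lists, which were chosen with earlier results of these data known. Their members were called in 0 cases in each of the 4 comparisons. Among other antimicrobial and acute phase proteins, 22 of 25 measured genes were below 0 in SD minus LD at day -9, with a median of -0.37. In that comparison 60.3% of all named genes were below 0. This list shares genes with the neutrophil list, S100A8 and S100A12 among them, so the counts of the 2 lists are not independent. Without SD day -9 replicate 1 there were 24 of 25 below 0, and the median was -0.61. Haptoglobin (HP), which binds free hemoglobin, averaged 6.81 ± 2.01 in SD and 9.17 ± 2.21 in LD (s.d., n = 4 each). At day -24 the list had 12 of 25 below 0 and a median of 0.01, where 40.1% of all named genes were below 0. For day -9 minus day -24 its median was -0.07 in SD (12 of 25 above 0) and 0.36 in LD (17 of 25 above 0), where 42.3% of all named genes were above 0 in SD and 59.9% in LD.

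Receptors of bacterial products and their adaptors, the first step of defensin induction, had 10 of 12 genes below 0 in SD minus LD at day -9. Their median was -0.11, where 60.3% of all named genes were below 0. The endotoxin-binding protein gene LBP averaged 9.33 ± 1.39 in SD and 10.01 ± 0.88 in LD, and the flagellin receptor TLR5, under the lower quartile in 12 of 14 arrays, 4.01 ± 0.08 in SD and 4.42 ± 0.36 in LD (s.d., n = 4 each). In the NF-kappaB pathway, which carries the signal to the defensin promoters, 12 of 12 genes were below 0, with a median of -0.17. Single genes ran from -0.34 to -0.00 by the probe set of the highest mean. Other probe sets of these genes lay on both sides of 0, from -0.15 to 0.32. The inhibitor NFKBIA, itself a target of the pathway, averaged 9.02 ± 0.32 in SD and 9.36 ± 0.50 in LD, and the kinase subunit IKBKG 6.35 ± 0.11 in SD and 6.66 ± 0.15 in LD (s.d., n = 4 each). At day -24 the NF-kappaB list had 10 of 12 above 0 and a median of 0.11, where 59.9% of all named genes were above 0.

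Cytokines that induce defensins and their receptors had 10 of 17 genes below 0 at day -9, where 60.3% of all named genes were below 0. Their median was -0.07, or -0.01 without SD day -9 replicate 1. Of these 17 genes, 4 were under the lower quartile in every array. IL6 averaged 3.41 ± 0.60 in SD and 4.06 ± 0.46 in LD, under the lower quartile in 13 of 14 arrays, and the interleukin-1 antagonist IL1RN averaged 7.51 ± 0.45 in SD and 8.14 ± 0.65 in LD (s.d., n = 4 each). Chemokines had 5 of 7 below 0, beside the same 60.3%, and a median of -0.06, or -0.49 without SD day -9 replicate 1. CCL20, CXCL2 and CXCL3 were each under the lower quartile in 13 of 14 arrays, and CXCL8 in 12 of 14. The neutrophil attractant CXCL5 averaged 5.70 ± 0.63 in SD and 6.80 ± 0.53 in LD, with every SD array below every LD array, and CXCL8 averaged 3.79 ± 0.35 in SD and 4.72 ± 0.86 in LD (s.d., n = 4 each). Of the vitamin D axis, 2 of 6 listed genes were measured. The retinoid receptor RXRA averaged 10.10 ± 0.20 in SD and 10.21 ± 0.05 in LD (s.d., n = 4 each). The vitamin D binding protein gene GC, under the lower quartile in all 14 arrays, averaged 3.25 ± 0.33 in SD and 3.02 ± 0.25 in LD (s.d., n = 4 each).

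**Figure D5:**
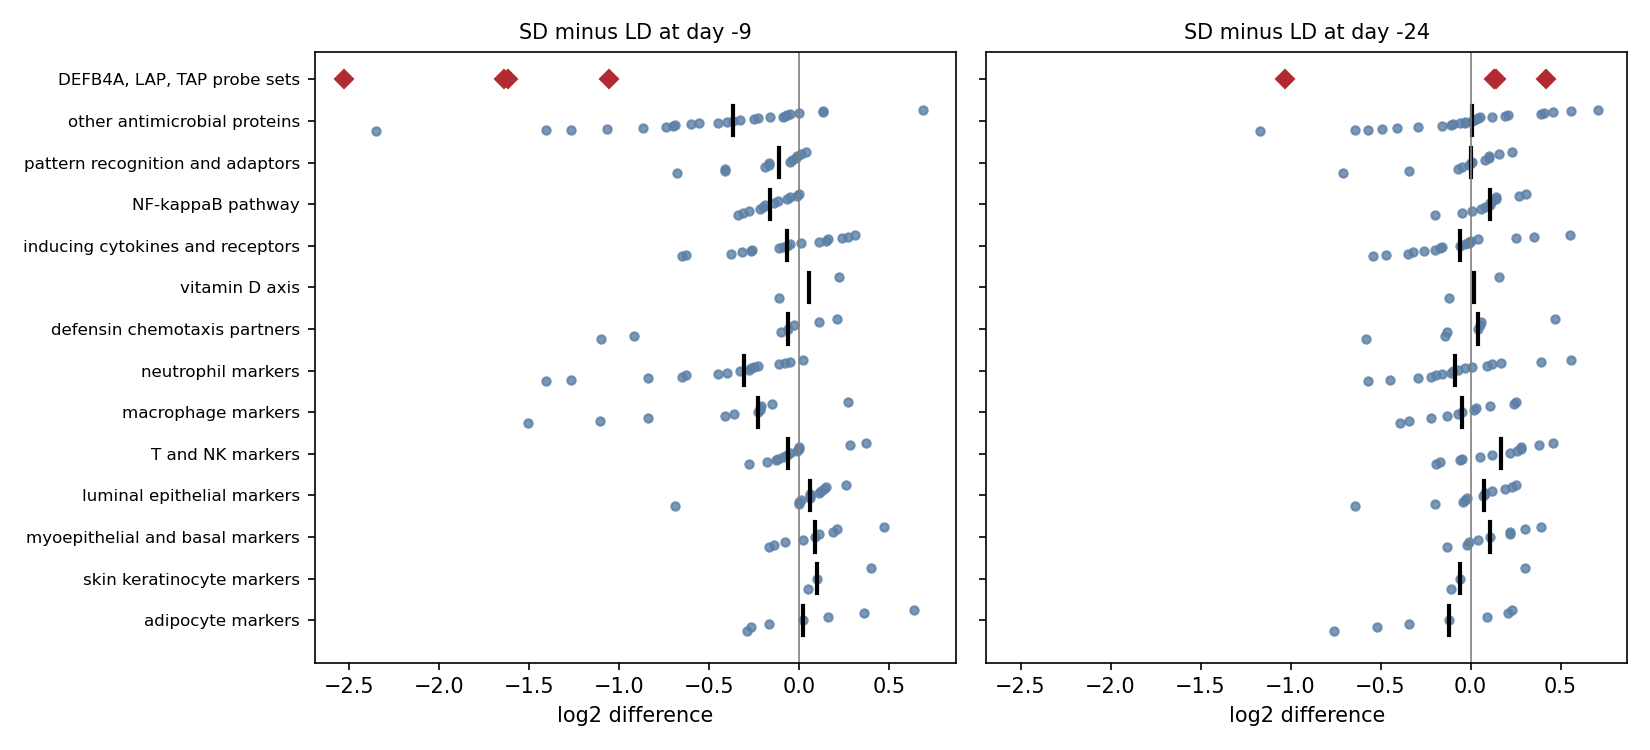
Log2 difference SD minus LD (horizontal axis) at day -9 (left) and day -24 (right) for the member probe sets (diamonds) and the genes of each list (points, 1 probe set per gene), with black bars at the list medians. At day -9 the diamonds lie between -2.53 and -1.06 and the neutrophil and antimicrobial lists have medians of -0.31 and -0.37; at day -24 the diamonds lie on both sides of 0.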

How the data were processed

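The deposited values were log2 signals, 1 per probe set and array, made by the authors with RMA, per the submitters' processing notes. The software, its version and a genome build are not given in the sources used here. Arrays have no read depth, and their number limits the precision. Tests left out 112 control probe sets of the manufacturer. Probe sets took their gene symbol from the platform annotation: 13292 had 1 symbol, 86 several and 10638 none. A model with 1 mean per group was fitted to the 14 arrays with limma 3.58.1 in R 4.3.3 (two-sided, no trend, Benjamini-Hochberg over 24016 probe sets, threshold 0.05). The procedure was tested on simulated data. Correlations were tested two-sided over all 20736 permutations within groups, a test added after seeing the data in place of 1 over all arrays, which would hold the difference that chose the genes.

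The members, the 14 lists (138 of 214 genes measured, by the probe set of the highest mean) and the tests were chosen with earlier results of these data known. Beside members and other defensins, the text names the 2 genes of each list with the largest difference between SD and LD at day -9, and the 8 genes most like the members. KRT8, S100A8 and S100A9 fall under this rule. The difference between the DEFB4A probe sets was noticed after the values were seen.

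Replicate numbers were not used to pair the samples, and whether they mark the same cow is not given in the sources used here. The correlation of same-numbered arrays in their deviations from group means lay between -0.342 and 0.331 over all pairs of groups. Arrays of different number were not set beside them, so these values cannot settle whether samples were paired. Alternatives changed the filter, the prior variance, array weights, normalization, the groups fitted, the replicate block and the arrays included.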

Additional observations from a re-analysis of the deposited data

Results flagged for a closer look

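In groups of 4 arrays, 78 in number over the genes named, 8 held 1 array far from the other 3 (gap over range above 0.829). Chance gives about 1 such group in 20. Among the members this was LAP in SD at day -9, where replicate 1 was at 8.59 and the others between 5.11 and 5.51. In the same array LBP was at 11.38, against 8.37 to 8.87 in the others, and the lipase gene LPL at 11.34, against 9.70 to 9.85. CD68 was at 6.52 in SD day -9 replicate 2, against 7.18 to 7.28. CXCL5 was at 7.60 in LD day -9 replicate 1, the array highest in all member probe sets, against 6.5 to 6.57. In LD day -9 replicate 3, DEFB13 was at 3.31 (others 3.91 to 4.02), the receptor gene KLRK1 at 6.01 (7.01 to 7.07) and MUC1 at 10.49 (10.22 to 10.25).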

How the results depend on the processing

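Of 502 values recomputed under the alternatives, 27 changed sign. Many of the 502 could not change, since a variance setting, the filter or an array outside the comparison leaves a difference as it is. No tested difference of a member passed the threshold in any of them. The SD minus LD differences of the members at day -9 and their LD differences between days stayed on their side of 0 in every alternative run. In many runs this was fixed in advance for the reason just given, and TAP could not be fitted under the filter on low signal. The replicate block changed no call, and for day -9 minus day -24 in LD it gave 1.79 for DEFB4A S1_s_at and 2.52 for LAP (limma adjusted p = 0.808 for both). The cause of the reversals was not tested. With array weights, LAP was at -0.46 for SD minus LD at day -24, and DEFB4A S1_s_at at -0.20 between days in SD. Without the low-signal arrays (SD day -24 replicate 3, LD day -9 replicate 4), SD minus LD at day -24 was -0.09 for DEFB4A S1_at and -0.31 for LAP, and DEFB4A S1_at differed by 0.13 between days in SD. These settings, except for the members at day -9, and those without the arrays extreme on a principal component (SD day -9 replicate 1, LD day -24 replicate 1) were chosen after seeing the data. The extreme arrays left out gave -0.25 for LAP at day -24, and -0.24 and -0.16 for DEFB4A S1_s_at and LAP between days in SD.

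When each array was left out in turn, SD minus LD at day -24 ranged from -0.37 to 0.89 for DEFB4A S1_at and from -0.31 to 0.85 for LAP. Day -9 minus day -24 in SD ranged from -0.24 to 0.87 and from -0.84 to 0.67 for the DEFB4A probe sets, and from -0.16 to 1.11 for LAP. Calls over all probe sets in that comparison ranged from 0 to 1: without SD day -24 replicate 3, 1 probe set without a gene symbol passed, and 1 passed without both low-signal arrays. In the other 3 comparisons the calls were 0 throughout. Correlations with TAP were 0.33 and 0.14 for the DEFB4A probe sets and 0.48 for LAP with group means removed, and 0.00 and -0.20 for the DEFB4A probe sets and 0.39 for LAP without the 2 farthest arrays. Without the arrays extreme on a principal component, list medians for SD minus LD at day -9 were -0.70 for neutrophil markers, -0.61 for antimicrobial proteins, -0.12 for macrophage markers, -0.05 for the vitamin D axis, -0.49 for chemokines, 0.12 for T and NK, -0.05 for luminal, -0.10 for myoepithelial and -0.03 for adipocyte markers.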
